A study of Mus musculus with 3 samples.

Results

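Cholesterol synthesis in mouse liver was followed through 7 enzyme genes, Hmgcs1, Idi1, Fdps, Sqle, Lss, Cyp51 and Sc4mol, taken by symbol from the tables of 3 liver libraries. Each of the 7 symbols matched 1 row among 23850, all 7 had an estimate in every library, and all 7 reached at least 1 FPKM (fragments scaled to transcript length and to the mapped fragments of the library) in every library. The 7 genes are enzymes of synthesis, and none of them takes up cholesterol from blood. The libraries came from mice of the C57BL6J/FVB background aged 16 weeks, from RNA depleted of ribosomal RNA. The wt AL library is wild type with free access to food, the Ercc1 AL library is Ercc1 delta/- with free access to food, and the Ercc1 DR library is Ercc1 delta/- on diet restriction. Ercc1 encodes a subunit of a DNA repair endonuclease, the mutants carry a delta allele and a null allele in the whole body, and no diet-restricted wild type was analysed here. With 1 library per group and no label saying whether it holds 1 animal or several, no difference here is checked by replicates and no p-value is given.

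Cholesterol is built from acetyl-CoA in the mevalonate pathway, and liver is a main site of this synthesis. The pathway runs from the condensation that Hmgcs1 (HMG-CoA synthase) catalyses, through the isoprenoid units that Idi1 (isopentenyl diphosphate isomerase) and Fdps (farnesyl diphosphate synthase) form, to squalene, which Sqle (squalene epoxidase) oxidises and Lss (lanosterol synthase) closes into the first sterol. Cyp51 (lanosterol demethylase) and Sc4mol (methyl sterol oxidase, now called Msmo1) then strip methyl groups from the sterol ring. When sterols run low in the endoplasmic reticulum, the transcription factor SREBP-2 is released to the nucleus and activates the genes of the pathway, together with the factor NF-Y, which binds CCAAT boxes.

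The promoters of 3 of these genes are shown because Hmgcs1 and Sc4mol stood at higher deposited FPKM in both mutant libraries than in wt AL, while Idi1 did not keep that order. Lss, which is not shown, also stood higher in both, at 2.55, 2.85 and 3.37 FPKM, with overlapping wt AL and Ercc1 AL intervals. The stretches shown are the 250 bases before the RefSeq transcription start on build GRCm38.p6, 5′ to 3′ on the gene's strand. Hmgcs1 has its RefSeq start upstream of the start in the deposited tables. Its stretch lies at chr13:119690101-119690350 on the plus strand, the Sc4mol stretch at chr8:64733579-64733828 on the minus strand and the Idi1 stretch at chr13:8885356-8885605 on the plus strand. Capitals mark matches on either strand to CCAAT (read as ATTGG on the other strand) and to TCACNCCAC, a core of the sterol regulatory element that SREBP-2 binds.
Hmgcs1: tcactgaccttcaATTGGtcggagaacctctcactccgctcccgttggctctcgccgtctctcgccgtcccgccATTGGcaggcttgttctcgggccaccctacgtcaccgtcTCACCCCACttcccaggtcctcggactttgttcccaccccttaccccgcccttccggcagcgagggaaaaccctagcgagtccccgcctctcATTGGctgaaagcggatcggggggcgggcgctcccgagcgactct
Sc4mol: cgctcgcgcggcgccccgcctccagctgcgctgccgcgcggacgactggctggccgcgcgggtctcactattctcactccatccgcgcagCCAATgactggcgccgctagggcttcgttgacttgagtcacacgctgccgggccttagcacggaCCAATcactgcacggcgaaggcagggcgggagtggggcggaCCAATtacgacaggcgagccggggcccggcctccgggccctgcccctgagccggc
Idi1: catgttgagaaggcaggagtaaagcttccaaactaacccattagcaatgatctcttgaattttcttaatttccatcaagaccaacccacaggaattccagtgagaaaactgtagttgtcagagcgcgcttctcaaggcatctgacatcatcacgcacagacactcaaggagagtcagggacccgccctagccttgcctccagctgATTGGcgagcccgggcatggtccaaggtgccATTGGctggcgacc

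RefSeq promoters were matched for 5 of the 7 genes, namely Hmgcs1, Idi1, Lss, Cyp51 and Sc4mol. In windows from 250 bases before to 50 after the start, 5 of these 5 held a CCAAT match, against 37.4% of 32851 promoters in the table. A GC box, GGGCGG on either strand, was present in 5 of 5, against 35.7% of all promoters. Of the 5, only Hmgcs1 held TCACNCCAC, at position -137 from the start, and 1.24% of all promoters did. The E-box CANNTG, whose reverse complement is the same motif, was found in 4 of 5, all but Cyp51, against 72.3% of all promoters. The one overlap between different motifs in the 5 windows was in Hmgcs1, where the E-box at -239 shares letters with the CCAAT match at -237. Hmgcs1 held 4 CCAAT matches, at positions -237, -176, -45 and 11, and Sc4mol held 3, at -160, -96 and -55. These are matches of letters in a window, and binding was not measured.

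Hmgcs1 lies on chromosome 13 from 119690462 to 119708077 of mm10 on the plus strand. Its level was 7.65 FPKM in wt AL (the authors' interval being 6.92 to 7.81), 14.9 FPKM in Ercc1 AL (13.7 to 14.8) and 17.4 FPKM in Ercc1 DR (16.0 to 17.2). In deposited FPKM the 3 intervals were apart, with wild type lowest and the restricted mutant highest. After the rescaling used for the ratios, Ercc1 DR stood below Ercc1 AL, at 15.5 against 16.7. Idi1, on chromosome 13 from 8885606 to 8892396, stood at 11.9 FPKM in wt AL (10.7 to 11.9), 13.0 FPKM in Ercc1 AL (11.8 to 12.8) and 10.2 FPKM in Ercc1 DR (9.23 to 10.2). The intervals of the freely fed libraries overlapped, and Ercc1 DR lay below both.

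In deposited FPKM, Fdps was the one gene of the 7 with its highest level in wild type, while after the rescaling used for the ratios Idi1, Lss and Cyp51 were also highest there. It lies on chromosome 3 from 89093588 to 89101967 on the minus strand, with the small RNA gene Gm22935 inside its span. Its level was 29.1 FPKM in wt AL (27.8 to 30.6), 14.3 FPKM in Ercc1 AL (13.5 to 15.2) and 18.0 FPKM in Ercc1 DR (17.0 to 19.1). All 3 intervals were apart. Fdps is also the gene of the 7 with the most near-copies. At 90% identity or more over at least 200 bases, its transcript matched 6 other genes of GENCODE M21, of which 5 were processed pseudogenes with 91.1% to 98.9% identity and 1 was the protein-coding model Gm43738. Idi1 matched 4 others, 3 of them processed pseudogenes, and Hmgcs1 matched 1 antisense transcript, while Sqle, Lss, Cyp51 and Sc4mol matched none. Fdps and Idi1 values are therefore uncertain to the extent that reads were shared with these copies, which was not tested.

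Sqle, on chromosome 15 from 59315092 to 59331193, stood at 8.88 FPKM in wt AL (7.93 to 8.95), 16.0 FPKM in Ercc1 AL (14.4 to 15.6) and 14.4 FPKM in Ercc1 DR (13.0 to 14.2). Both mutant libraries were above wild type, and their intervals did not overlap each other. Lss, on chromosome 10 from 76531627 to 76553934, overlaps the noncoding gene 4930483K19Rik and was the lowest of the 7 genes in every library. It was at 2.55 FPKM in wt AL (2.28 to 2.80), 2.85 FPKM in Ercc1 AL (2.57 to 3.08) and 3.37 FPKM in Ercc1 DR (3.05 to 3.61). Only the wt AL and Ercc1 DR intervals of Lss were apart.

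Cyp51, on chromosome 5 from 4080674 to 4104697, had overlapping intervals in the freely fed libraries, at 6.26 FPKM in wt AL (5.76 to 6.42) and 6.88 FPKM in Ercc1 AL (6.37 to 7.05). It stood lower in Ercc1 DR, at 5.30 FPKM (4.88 to 5.45). Sc4mol, which acts later on the sterol ring, on chromosome 8 from 64718145 to 64733578, was at 8.56 FPKM in wt AL (7.26 to 8.53), 22.6 FPKM in Ercc1 AL (19.6 to 21.3) and 20.0 FPKM in Ercc1 DR (17.3 to 19.1). Both mutant libraries were above wild type by more than the width of any of these intervals. For 9 of the 21 values the FPKM was not inside the interval given with it, all of them in Hmgcs1, Idi1, Sqle and Sc4mol, and the interval reached from 3.78% to 10.2% of its midpoint to either side. They describe 1 library each and leave out the variation between animals.

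**Figure D1:**
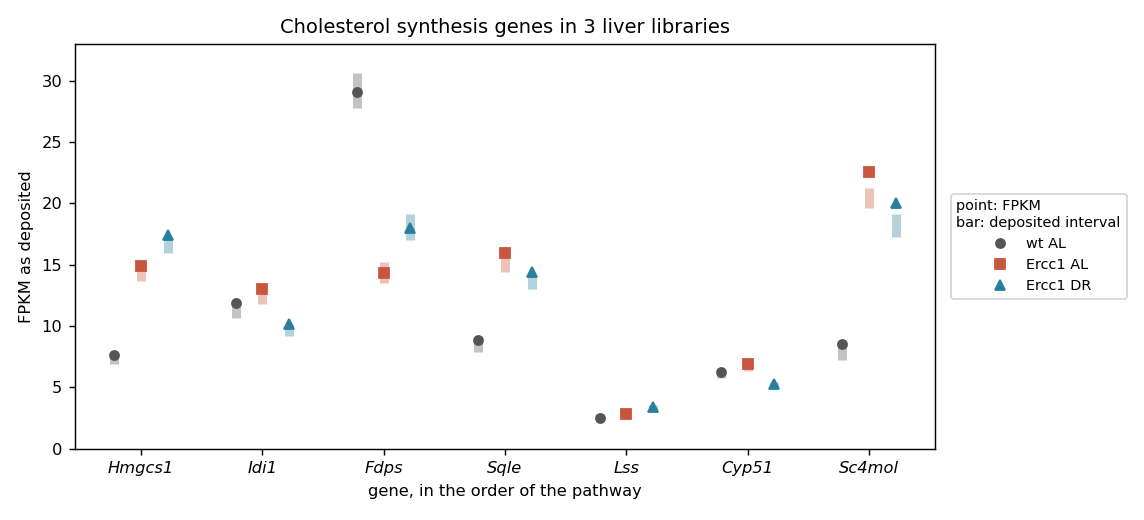
Deposited FPKM (y axis) of the 7 genes in pathway order (x axis) in wt AL (circles), Ercc1 AL (squares) and Ercc1 DR (triangles), each point 1 library, with bars for the deposited interval. Fdps is highest in wt AL at 29.1 FPKM, while Hmgcs1, Sqle and Sc4mol are lowest there.

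FPKM is a level per length, so the order of the genes can be read within a library. In wt AL the order from the top was Fdps, Idi1, Sqle, Sc4mol, Hmgcs1, Cyp51 and Lss, and the neighbours Sqle and Sc4mol, and Sc4mol and Hmgcs1, had overlapping intervals. In Ercc1 AL it was Sc4mol, Sqle, Hmgcs1, Fdps, Idi1, Cyp51 and Lss, with Sqle, Hmgcs1 and Fdps overlapping from neighbour to neighbour. In Ercc1 DR it was Sc4mol, Fdps, Hmgcs1, Sqle, Idi1, Cyp51 and Lss, with Sc4mol, Fdps and Hmgcs1 overlapping in the same way. Fdps thus headed the wild-type order and Sc4mol both mutant orders, and Cyp51 and Lss closed all 3.

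Ratios between genes of 1 library do not depend on how libraries are scaled. The FPKM of Sc4mol was 0.294 of that of Fdps in wt AL (0.237 to 0.307 from the deposited bounds), 1.58 times it in Ercc1 AL (1.29 to 1.58) and 1.11 times it in Ercc1 DR (0.907 to 1.13). The ratio was thus 5.36-fold higher in Ercc1 AL than in wt AL (4.20 to 6.67 from the bounds) and 0.704 of the Ercc1 AL ratio in Ercc1 DR (0.573 to 0.875). The ratio of Hmgcs1 to Fdps was 0.263 in wt AL, 1.04 in Ercc1 AL and 0.965 in Ercc1 DR. For Sqle to Fdps it was 0.305, 1.11 and 0.801 in the same order. In each of these pairs both mutant libraries were above wild type by more than the range that the bounds allow. The consecutive enzymes Cyp51 and Lss kept their ratio between the freely fed libraries, 2.45 in wt AL and 2.41 in Ercc1 AL, a change of 0.983-fold (0.736 to 1.33 from the bounds), and in Ercc1 DR it was 1.57. The ratio of Hmgcs1 to Idi1, which does not involve Fdps, was 0.644 in wt AL, 1.15 in Ercc1 AL and 1.70 in Ercc1 DR. That of Sc4mol to Cyp51 was 1.37, 3.29 and 3.77.

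**Figure D2:**
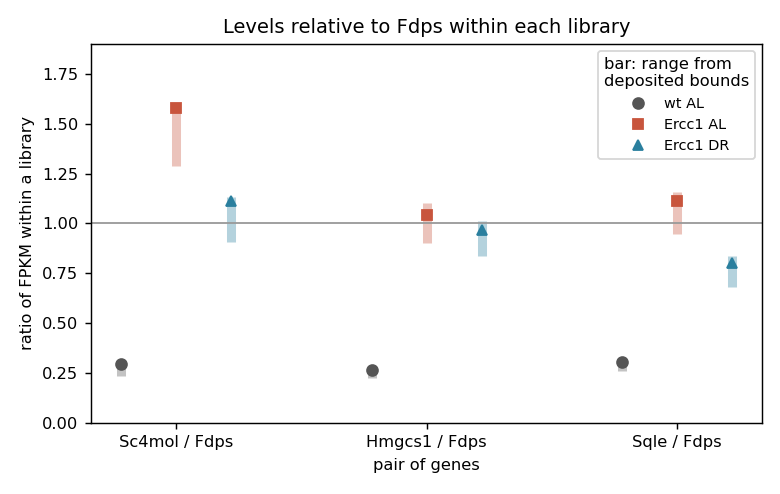
Ratio of FPKM to that of Fdps within a library (y axis, linear) for Sc4mol, Hmgcs1 and Sqle (x axis) in wt AL (circles), Ercc1 AL (squares) and Ercc1 DR (triangles), with bars for the range from the deposited bounds. The 3 wild-type ratios lie between 0.263 and 0.305, and all mutant ratios are above them.

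Between libraries the general level of expression differed. Across 9109 genes that reached 1 FPKM in every library, the median log2 FPKM ratio was 0.49 for Ercc1 AL against wt AL, 0.33 for Ercc1 DR against Ercc1 AL and 0.78 for Ercc1 DR against wt AL. The log2 ratios below are therefore of FPKM + 1 after removing that median, and values before this rescaling are called as deposited. A gene counted as higher or lower when its ratio was at least 2-fold, over genes with at least 1 FPKM in either library. Ercc1 itself was at 0.461 FPKM in wt AL, 0.573 in Ercc1 AL and 0.475 in Ercc1 DR with overlapping intervals, and the row sums both alleles, so it does not check the labels. Genes at 1 FPKM or more numbered 10436 in wt AL, 11861 in Ercc1 AL and 10887 in Ercc1 DR. The hepatocyte markers fixed for this work were abundant in all 3 libraries, 8 of 8 with an estimate being at 1 FPKM or more, and albumin had no estimate in any.

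In the freely fed mutant against the freely fed wild type, the question was how genotype goes with the pathway, and the genes went different ways. Fdps was lower, with a log2 ratio of -1.44, with only 1.9% of measured genes below it, while Sc4mol had a log2 ratio of 0.85, with 96.9% of them below it. Hmgcs1 was at 0.43 and Sqle at 0.33. Idi1, Cyp51 and Lss, at -0.33, -0.31 and -0.24, were close to each other. Of the 7 genes, 0 were at least 2-fold higher and 1, Fdps, at least 2-fold lower, beside 2.35% higher and 4.90% lower of 12359 genes measured. Their median log2 ratio was -0.24, and that of all genes measured was 0.01.

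As deposited, the same comparison had Sc4mol at a log2 ratio of 1.30, Hmgcs1 at 0.88, Sqle at 0.78 and Fdps at -0.97, with Idi1, Lss and Cyp51 each at 0.12. On that scale 1 gene, Sc4mol, was at least 2-fold higher and 0 lower, beside 5.80% higher and 2.20% lower of all genes. Which of Fdps and Sc4mol passed the threshold therefore depended on the scaling, while their order did not. The deposited intervals, rescaled in the same way, were apart for 7 of 7 genes, and this held for 51.7% of all genes measured.

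Under diet restriction within the mutant, the 7 genes spanned a narrow range that lay at or below the general level. The lowest log2 ratios in Ercc1 DR against Ercc1 AL were -0.62 for Idi1 and -0.61 for Cyp51. Sc4mol was at -0.49, Sqle at -0.45, Hmgcs1 at -0.11 and Lss at -0.07. Fdps stood at 0.997 of its Ercc1 AL value on the same FPKM + 1 scale. None of the 7 was at least 2-fold higher or lower (0 and 0), beside 3.12% higher and 12.0% lower of 12361 genes measured. Their median was -0.45, against -0.06 for all genes measured.

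As deposited, Fdps was at 0.31, Hmgcs1 at 0.21 and Lss at 0.18 in this comparison, and the other 4 genes were between -0.32 and -0.14. Again 0 of 7 passed 2-fold either way, beside 6.50% higher and 8.71% lower of all genes. The rescaled intervals were apart for 5 of 7 genes, all but Fdps and Lss, and for 67.8% of all genes. The sign of these ratios rests on the scaling. With libraries brought to an equal FPKM sum after leaving out the 100 most abundant genes, all 7 were above 0, from 0.49 for Cyp51 to 1.20 for Fdps. That sum removed a log2 shift of -0.94 instead of 0.33, so every gene stood higher, and 40.3% of all genes were at least 2-fold higher. Being above 0 on that scale thus does not place the 7 genes above the general level.

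The restricted mutant against the freely fed wild type differs in genotype and diet together, and it shares its libraries with the comparisons above. Fdps had a log2 ratio of -1.41, Idi1 one of -0.91 and Cyp51 one of -0.87. Sc4mol was at 0.41, Hmgcs1 at 0.37, Sqle at -0.07 and Lss at -0.28. Of the 7 genes 0 were at least 2-fold higher and 1, Fdps, lower, beside 6.02% higher and 16.4% lower of 12127 genes measured. Their median was -0.28, that of all genes -0.03.

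As deposited, Sc4mol at 1.13 and Hmgcs1 at 1.09 were at least 2-fold higher and 0 genes lower, beside 24.0% higher and 8.63% lower of all genes. Fdps was then at -0.66. Intervals after rescaling were apart for 6 of 7, all but Sqle, and for 71.8% of all genes. The higher calls are thus close to the background share on that scale.

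**Figure D3:**
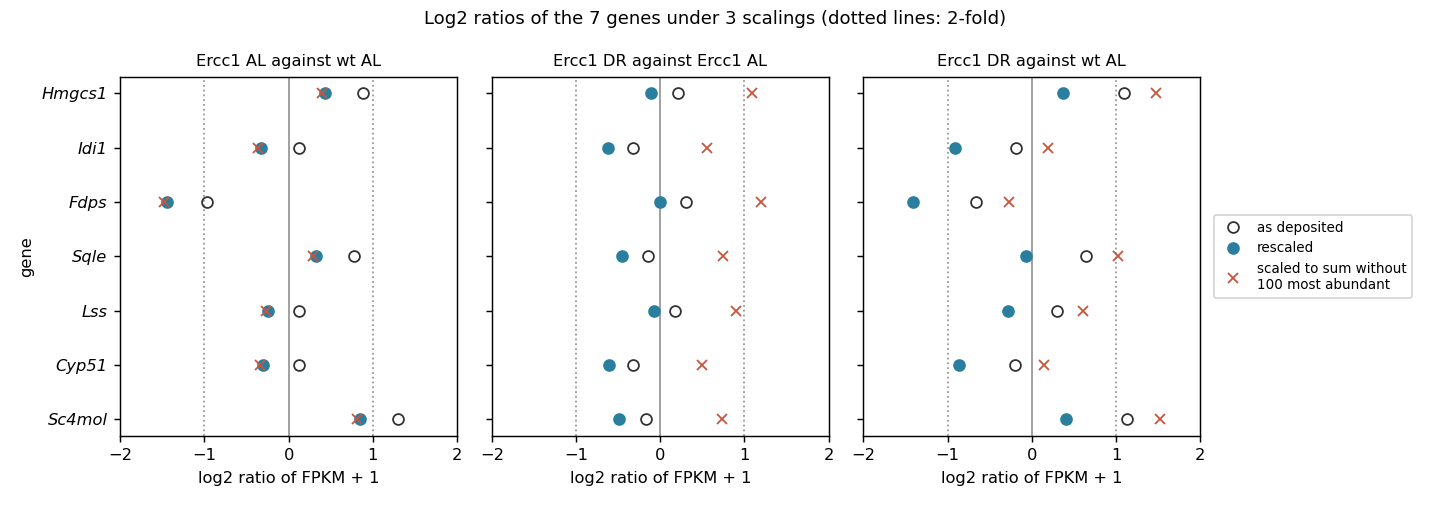
Log2 ratios of FPKM + 1 (x axis) of the 7 genes (y axis) in the 3 comparisons, 1 library a group, rescaled to the median gene (filled), as deposited (open) and brought to an equal FPKM sum that leaves out the 100 most abundant genes (crosses), with dotted lines at 2-fold. Fdps is the lowest and Sc4mol the highest gene in the panel of Ercc1 AL against wt AL under each scaling.

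Of the other enzymes of the pathway, 14 genes in a list fixed for this work, 0 were higher and 0 lower in Ercc1 AL against wt AL. Among all genes 2.35% were higher and 4.90% lower there, so the counts of 0 are near those shares. The 14 had a median log2 ratio of -0.11. Their lowest was Nsdhl, a sterol dehydrogenase that acts after Sc4mol, at -0.88 (3.97 to 2.49 FPKM from wt AL to Ercc1 AL). Ebp, the sterol isomerase, was at -0.64 and Mvd, which decarboxylates mevalonate diphosphate, at 0.49. The 14 in Ercc1 DR against Ercc1 AL again had 0 higher and 0 lower, beside 3.12% and 12.0% of all genes. Their median was -0.11, with Sc5d, a sterol desaturase, at -0.69 and Mvd at -0.67. Of the 13 measured in Ercc1 DR against wt AL, 0 were higher and 2 lower, Sc5d at -1.24 and Nsdhl at -1.18. The share of all genes lower there was 16.4%. As deposited Sc5d and Nsdhl were at -0.50 and -0.60, within 2-fold, and with the equal FPKM sum 0 of the 13 were lower and 2 higher. For this pair that sum removed a log2 shift of -0.42 instead of 0.78, which put every gene higher, also than as deposited. At least the deposited share of 24.0% of all genes was therefore higher with it. With that sum 8 of the 14 were at least 2-fold higher in Ercc1 DR against Ercc1 AL, beside 40.3% of all genes. Fdft1, squalene synthase, which uses the product of Fdps, was at 0.10, -0.06 and 0.08 in the 3 comparisons in the order above.

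Genes of sterol sensing and SREBP processing were near the general level in Ercc1 AL against wt AL, with a median of 0.08. There 0 were higher and 0 lower of 7 measured, beside 2.35% and 4.90% of all genes. The median of these sensing genes was 0.43 in Ercc1 DR against Ercc1 AL. There 0 were higher and 0 lower of 8, beside 3.12% and 12.0% of all genes. Insig2, which retains the SREBP complex in the endoplasmic reticulum, came nearest to the threshold at 0.98 (17.6 to 44.9 FPKM), and Rnf139 was at 0.69. As deposited Insig2 passed it, at 1.31. Against wt AL, Insig2 at 1.17 was in Ercc1 DR the 1 of 8 genes at least 2-fold higher, and 0 were lower. Mbtps2, a protease that releases SREBP, stood at 0.379 FPKM in wt AL, 0.874 in Ercc1 AL and 2.02 in Ercc1 DR. It thus passed the 1 FPKM filter only through Ercc1 DR. As deposited 3 of 8 were higher in Ercc1 DR against wt AL, Insig2 at 1.92, Rnf139 at 1.18 and Mbtps2 at 1.13. Among all genes 6.02% were higher and 16.4% lower there after rescaling, and 24.0% were higher as deposited. With the equal FPKM sum 6 of 8 were higher in each of the comparisons of Ercc1 DR. That sum had 40.3% of all genes higher in Ercc1 DR against Ercc1 AL. For Ercc1 DR against wt AL it put every gene higher than as deposited, so that share was at least 24.0%.

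Of 11 genes for uptake and intracellular transport of cholesterol, 0 were higher and 0 lower in Ercc1 AL against wt AL, with a median of -0.01. The shares of all genes there were 2.35% and 4.90%. The 1 uptake or transport gene higher in Ercc1 DR against Ercc1 AL was Scarb1, the receptor for high-density lipoprotein, at 1.19, and 0 were lower. Its level was 5.24 FPKM in wt AL, 10.8 FPKM in Ercc1 AL and 32.3 FPKM in Ercc1 DR. It was at 1.70 in Ercc1 DR against wt AL, where it was the 1 higher of 10 measured genes and 1 was lower. As deposited 2 were higher and 0 lower there, and with the equal FPKM sum 5 were higher in each of the comparisons of Ercc1 DR. Among all genes 6.02% were higher and 16.4% lower in Ercc1 DR against wt AL after rescaling, and 24.0% higher as deposited. In Ercc1 DR against Ercc1 AL 3.12% of all genes were higher and 12.0% lower after rescaling, and 40.3% were higher with the equal FPKM sum. For Ercc1 DR against wt AL that sum put every gene higher than as deposited, so at least 24.0% of all genes were higher. Among 11 genes of esterification, efflux and conversion, Abcg5, part of the transporter that exports sterols into bile, was the 1 gene at least 2-fold higher in Ercc1 AL against wt AL, at 1.14, and again in Ercc1 DR against Ercc1 AL, at 1.52, with 0 lower in both. It stood at 2.54 FPKM in wt AL, 9.31 in Ercc1 AL and 35.7 in Ercc1 DR. Abcg8, the other part of that transporter, was at 1.72, 4.37 and 11.5 FPKM. The 3 higher genes in Ercc1 DR against wt AL were Abcg5 at 2.70, Abcg8 at 1.59 and Lcat, which esterifies cholesterol in plasma lipoproteins, at 1.04, with 0 lower. As deposited 5 were higher there and 2 in Ercc1 DR against Ercc1 AL, and with the equal FPKM sum 6 in each. The deposited shares of all genes were 24.0% and 6.50%. After rescaling 2.35% of all genes were higher in Ercc1 AL against wt AL.

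Fatty acid synthesis, the other pathway that SREBP proteins control, differed from the 7 cholesterol genes in its counts. Of 12 such genes 10 were at least 2-fold lower and 0 higher in Ercc1 AL against wt AL, with a median log2 ratio of -1.57. There 1 of the 7 cholesterol genes was lower and their median was -0.24. The share of all genes measured that were lower was 4.90%. Fdps, at -1.44, lay among the fatty acid genes, and the other 6 lay above all 10 lower ones. As deposited, 7 of the 12 were at least 2-fold lower, beside 2.20% of all genes. When the restricted and freely fed mutants were compared, 2 of the 12, Scd1 at 1.53 and Acly at 1.15, were higher and 0 lower, with a median of 0.25. With the equal FPKM sum 10 were higher there. Among all genes 3.12% were higher in this comparison after rescaling and 40.3% with that sum. Against wt AL, 7 of the 12 were lower and 0 higher in Ercc1 DR, with a median of -1.33, beside 16.4% lower of all genes. As deposited 3 of the 12 were lower and 1, Srebf1 at 1.15, was higher there, with a median of -0.60. The deposited shares of all genes were 8.63% lower and 24.0% higher. With the equal FPKM sum 1 of the 12 was lower and 2 were higher against wt AL. That sum put every gene higher than as deposited, so at least 24.0% of all genes were higher and at most 8.63% lower. The difference between the lists was described and not tested, for want of replicates.

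**Figure D4:**
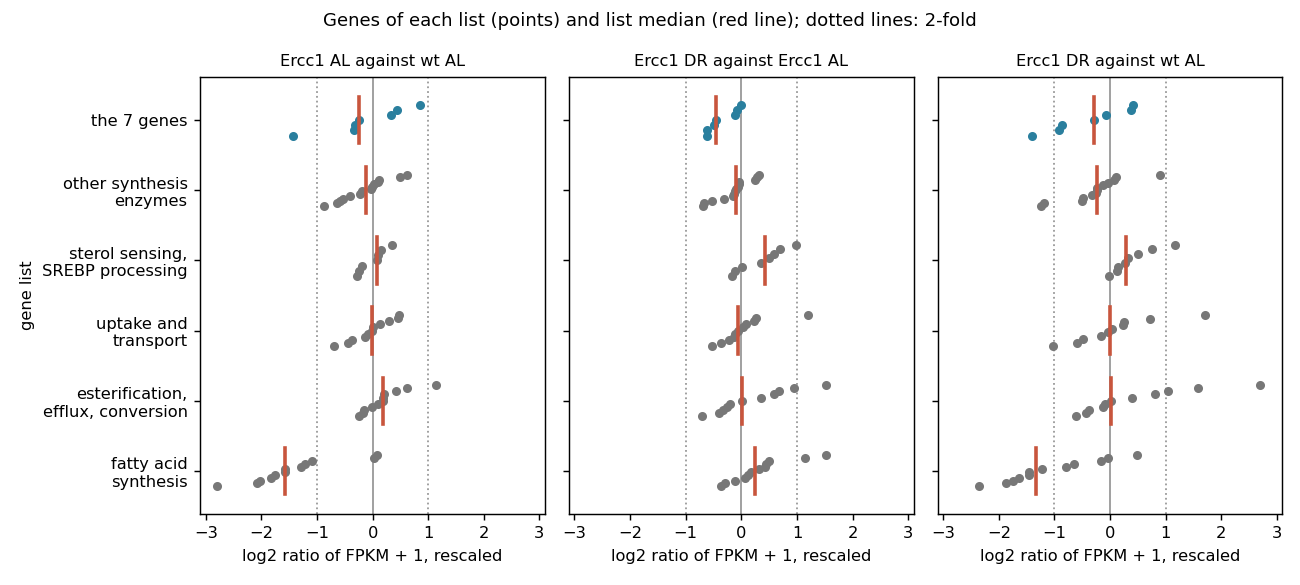
Rescaled log2 ratios of FPKM + 1 (x axis) for each measured gene (points) of the 7 cholesterol genes and 5 lists (y axis) in the 3 comparisons, with the list median as a red line and dotted lines at 2-fold. In Ercc1 AL against wt AL the median is -0.24 for the 7 genes and -1.57 for fatty acid synthesis.

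The 7 genes shared no single pattern, and only their median was used to look for like genes. Taking the median of the 7 genes in the first 2 comparisons as a point, at -0.24 and -0.45, 536 of 4452 other genes with an official symbol and at least 5 FPKM in a library lay within a distance of 0.5 on the log2 scale, and 3 of the 7 genes did. The 3 nearest were U2af1, a splicing factor subunit (distance 0.027, at 17.2 FPKM in wt AL, 20.1 in Ercc1 AL and 18.5 in Ercc1 DR), Cldn2, a tight junction protein (0.036), and Rcan1, an inhibitor of calcineurin (0.040). The distance is over 3 libraries only.

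Marker genes of liver cell types also differed between the libraries, in sums of deposited FPKM that were not rescaled. The summed FPKM of 8 hepatocyte markers was 4077 in wt AL, 4339 in Ercc1 AL and 8642 in Ercc1 DR. That of 8 pericentral hepatocyte markers was 502, 1298 and 2659, of which Cyp2e1 alone gave 415, 1164 and 2431. The 8 periportal markers summed to 390, 543 and 953 FPKM, and 8 sinusoidal endothelial markers to 42.7, 36.5 and 17.3 FPKM. The 8 macrophage markers summed to 16.4, 21.0 and 14.1 FPKM, 8 stellate cell markers to 23.7, 40.6 and 44.8 FPKM, of which Dcn gave 13.5, 24.5 and 30.8, and 6 cholangiocyte markers to 8.04, 5.16 and 5.02 FPKM. Sums of 5 neutrophil markers were 8.35, 6.20 and 3.11 FPKM, of 6 lymphocyte markers, 0 of which reached 1 FPKM in all libraries, 1.86, 2.73 and 1.40 FPKM, of 6 erythroid markers 174, 109 and 169 FPKM, of which Hba-a2 gave 145, 72.3 and 151, of 5 adipocyte markers 2.83, 5.46 and 12.9 FPKM and of 6 pancreatic markers 7.31, 9.55 and 4.93 FPKM. After rescaling, the median log2 ratio of the stellate markers measured was -0.25 in Ercc1 DR against Ercc1 AL and -0.09 in Ercc1 DR against wt AL. Alas2, an erythroid marker of heme synthesis, was highest in Ercc1 AL, at 14.8 FPKM, where Hba-a2 was lowest. The part of these markers in the values of the 7 genes was not tested, and in bulk tissue fewer cells of a type and less RNA per cell cannot be told apart.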

How the data were processed

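RNA of 3 liver libraries, 1 for each group, was measured by sequencing after removal of ribosomal RNA. The authors deposited FPKM values for 23850 rows, each with an interval and a status, per the file headers. The build is mm10, per the submitters' processing notes. For the quantification tool, the annotation, the use of strand and the total depth, the answer is not given in the sources used here, so precision is given only by the deposited intervals. Rows with the status HIDATA or FAIL were treated as missing. Loci were taken from the tables, with starts shifted to count from 1.

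Python 3.11.15 with numpy 2.4.6 and pandas 2.3.3 computed log2 ratios of FPKM + 1 after the median log2 FPKM ratio of a pair of libraries, over 9109 genes, had been removed, the shift being shared equally by both libraries. Genes measured had at least 1 FPKM in either library, and at least 2-fold was called higher or lower. The computation was tested on artificial tables with a known shift. Transcripts of the 7 genes were matched to GENCODE M21 with BLAST 2.17.0. Promoters came from RefSeq on GRCm38.p6. Groups followed the library titles. The 7 genes, the 7 pathway lists and the 12 marker lists were chosen with earlier results of these data known. Named genes are the 7, list members past 2-fold or with the largest absolute log2 ratios, and the 3 genes nearest to the median of the 7. Mvd in the first comparison, Fdft1, Mbtps2, Srebf1, Abcg8 in levels, Dcn, Hba-a2, Alas2, Cyp2e1, Mpo, Cidec, Fabp4 and Coq2 were chosen after their values were seen. So were S100a8, S100a9, Elane, Camp, Adipoq, Plin1 and Lep. Where a symbol stood on several rows, the row of highest mean level was taken. Some list members are counted and not named.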

Additional observations from a re-analysis of the deposited data

How the results depend on the processing

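No paired analysis was possible because each group has 1 library, and for the same reason no library could be left out. Of the 21 log2 ratios of the 7 genes, 21 moved by no more than the deposited bounds allow with a pseudocount of 0.1, with no filter on low values, with the midpoint of the deposited interval and with official symbols only, and 18 of the 18 that remained did so at 5 FPKM or more, where Lss is not measured. All 21 moved as deposited and 14 moved when libraries were brought to an equal FPKM sum that leaves out the 100 most abundant genes. In Ercc1 AL against wt AL, as deposited, 1 of the 7 genes was at least 2-fold higher instead of 0 and 0 lower instead of 1, with a median of 0.12. At 5 FPKM or more that median was 0.01. In Ercc1 DR against Ercc1 AL the median was -0.14 as deposited and 0.75 with the sum scaling, under which 2 genes, Hmgcs1 and Fdps, were higher, and 40.3% of all genes were higher and 2.67% lower. In Ercc1 DR against wt AL, 2 genes were higher and 0 lower as deposited, with a median of 0.30, beside 24.0% higher of all genes. With the sum scaling 3, Hmgcs1, Sqle and Sc4mol, were higher and 0 lower, with a median of 0.61. That scaling removed a log2 shift of -0.42 for this pair instead of 0.78, which put every gene higher, also than as deposited. At least the deposited share of 24.0% of all genes was therefore higher with it, and at most 8.63% lower. With a pseudocount of 0.1, 2 genes, Fdps at -1.47 and Cyp51 just past 2-fold, were lower in Ercc1 DR against wt AL. In Ercc1 DR against Ercc1 AL, 12.0% of all genes were lower with a pseudocount of 1 and 20.7% with 0.1. In Ercc1 DR against wt AL 16.4% were lower with 1, and at least that share with 0.1, which moves no ratio nearer to 0. At 5 FPKM or more the median of the 7 genes in this comparison was -0.47. The cause of these moves was not tested beyond the scaling itself and the loss of Lss at 5 FPKM.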

Other observations

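Genes that use isoprenoid units for products other than cholesterol stayed within 2-fold in all 3 comparisons after rescaling, while with the equal FPKM sum 2 were higher in Ercc1 DR against Ercc1 AL and 1 in Ercc1 DR against wt AL. Of 8 such genes, 6 were measured in Ercc1 AL against wt AL, with a median log2 ratio of -0.16. In each of the others 7 were measured, with medians of -0.03 in Ercc1 DR against Ercc1 AL and -0.08 in Ercc1 DR against wt AL. Among all genes 2.35% were higher and 4.90% lower in Ercc1 AL against wt AL after rescaling. The shares were 3.12% and 12.0% in Ercc1 DR against Ercc1 AL, and 6.02% and 16.4% in Ercc1 DR against wt AL. With the equal FPKM sum 40.3% of all genes were higher in Ercc1 DR against Ercc1 AL. In Ercc1 DR against wt AL at least 24.0% were, as that sum put every gene higher than as deposited. Coq2, an enzyme of coenzyme Q synthesis, stood at 5.47 FPKM in wt AL, 8.53 in Ercc1 AL and 12.5 in Ercc1 DR, and as deposited its log2 ratio in Ercc1 DR against wt AL was 1.06. The labels give no hour of collection, and cholesterol synthesis is known to follow the daily rhythm. Of 12 clock genes measured in Ercc1 AL against wt AL, 1, Clock, was at least 2-fold lower (12.1 to 5.16 FPKM) and 0 higher. Of 11 measured in Ercc1 DR against Ercc1 AL 0 were higher or lower. In Ercc1 DR against wt AL 3 of 12 were lower, namely Clock, Npas2 and Nr1d1, but 0 as deposited. Npas2 (2.21 to 0.682 FPKM) and Nr1d1 (1.52 to 0.503 FPKM) were low there and passed the 1 FPKM filter only through wt AL. After rescaling 4.90% of all genes were lower in Ercc1 AL against wt AL and 16.4% in Ercc1 DR against wt AL. With the equal FPKM sum 4 clock genes were higher in each of the comparisons of Ercc1 DR, and 2 were lower in Ercc1 AL against wt AL. That sum had 40.3% of all genes higher in Ercc1 DR against Ercc1 AL and 5.14% lower in Ercc1 AL against wt AL. The part of the clock genes in the values of the 7 genes was not tested.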
